A study of Mus musculus with 6 samples.

Results

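The 8 genes described here, of arginine, nitric oxide and itaconate metabolism, were followed in mouse colon, cell class by cell class and library by library. They were taken by symbol from the gene table of every library, and each was found once among 32285 genes. In the order in which arginine passes through them, Slc7a2 encodes a transporter that brings arginine into the cell, and Nos2 the inducible nitric oxide synthase that turns it into nitric oxide and citrulline. Ass1 encodes argininosuccinate synthase, which returns citrulline towards arginine. Arg1 and Arg2 encode the cytosolic and the mitochondrial arginase, which split arginine into ornithine and urea, and Odc1 encodes ornithine decarboxylase, the entry step of polyamine synthesis. Acod1 encodes the enzyme that makes itaconate from the citrate cycle intermediate cis-aconitate, and Sod2 the mitochondrial superoxide dismutase.

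As background, nitric oxide synthase and arginase draw on the same arginine, and mouse macrophages are known to express Nos2 after microbial products and interferon gamma and Arg1 after type 2 cytokines. Itaconate made in activated myeloid cells inhibits succinate dehydrogenase and engages the transcription factor Nrf2. Nitric oxide, itaconate and Sod2 are all known from inflamed tissue, the colon included.

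The study set pseudo germ-free (pGF) mice beside specific pathogen free (SPF) mice, all wild type, before and on days 2 and 7 of colitis induced with dextran sulfate sodium (DSS), which damages the epithelial lining. The pGF day 0 library came from mice given antibiotics for 4 weeks, and the pGF day 2 and day 7 libraries from mice that then received antibiotics and DSS together. The SPF mice had no antibiotics, and were untreated at day 0 and given DSS alone for the later days. The sources used here do not say how many mice went into a library, nor which antibiotics were given. Colon pieces were treated with EDTA to strip epithelium, digested and sorted for CD45, a surface protein of blood-derived cells, so epithelial cells stand in these libraries in spite of both steps. Each of the 6 groups was 1 library. No difference below has a replicate check, no test was possible, and every comparison is between libraries rather than between conditions.

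The libraries held between 23335071 and 52772901 UMIs (unique RNA molecules) and gave 29130 kept cells of 40523 barcodes. Between 106 and 431 barcodes of a library also occurred in another one. The mitochondrial limit removed 61.1% of SPF day 2 barcodes, and between 6.41% and 28.1% in the other libraries. Monocytes or macrophages numbered 144, 100 and 164 cells in pGF and 285, 310 and 1460 cells in SPF at days 0, 2 and 7. Neutrophils numbered 7, 49 and 71 cells in pGF and 1, 54 and 3496 cells in SPF, and epithelial cells 113, 1079 and 82 in pGF and 125, 764 and 37 in SPF. The class called monocytes or macrophages had UMIs of all 18 of its markers at day 7 in both arms. All 14 neutrophil markers were likewise present in the neutrophils of both day 7 libraries. T or NK cells of both day 7 libraries also had UMIs of all 18, and those of SPF day 7 of all 14. The classes were named from these same markers, so their presence is no separate check of the names.

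Levels are UMIs of a gene per 1000000 UMIs of the class (CPM), with exact Poisson intervals at 95%, and all intervals cover counting error only. Ratios are log2 of (CPM + 10), which understates changes of low genes. A gene was counted as higher or lower when it passed 2-fold on that scale and had at least 20 UMIs in both libraries together. Against a library with 0 UMIs, fold differences are bounds computed from a floor of 3 counts in that library.

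In monocytes or macrophages, 7 of the 8 genes stood far above every other library in SPF at day 7, and Odc1 did not. At day 7, Nos2, Arg1, Arg2, Ass1, Slc7a2, Acod1 and Sod2 were all lower in pGF than in SPF. Of the 9530 genes tested between these libraries, 12.1% passed 2-fold in either direction and 3.87% were lower in pGF. The median log2 ratio of the 8 genes was -3.20, against 0.24 over all genes tested.

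The difference was widest for Nos2, which was without a UMI in the monocytes or macrophages of 5 libraries. Its level was 0, 0 and 0 CPM in pGF and 0, 0 and 839.5 CPM in SPF at days 0, 2 and 7, the last from 7686 UMIs. The floor of 3 counts in the pGF day 7 class was 4.19 CPM, so Nos2 was at least 200.4-fold lower there than in SPF. Within the SPF day 7 class 33.4% of cells had a Nos2 UMI, and 22.9% after thinning each cell to 1000 UMIs. In T or NK cells of that library, which should lack the gene, the shares were 0.914% and 0.199%, at a median depth of 3102 UMIs against 6214 in monocytes or macrophages. No single cell held more than 2.07% of the Nos2 UMIs.

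Slc7a2, the arginine transporter, had 1.90, 1.85 and 22.3 CPM in pGF and 0, 4.08 and 185 CPM in SPF at days 0, 2 and 7. All 16 UMIs behind the pGF day 7 value came from 1 cell, while 22.3% of SPF day 7 cells had at least 1. The ratio of pGF to SPF at day 7 was -2.59 on the log2 scale, 8.29-fold lower with an interval of 5.09 to 14.5. Ass1 had 7.59, 59.3 and 53.1 CPM in pGF and 10.0, 13.1 and 244 CPM in SPF. In pGF its intervals at days 2 and 7 (40.6 to 83.7 and 37.6 to 72.8 CPM) lay above that at day 0 (3.28 to 14.9 CPM). At day 7 it was 4.6-fold lower in pGF than in SPF (interval 3.34 to 6.51), the smallest of the 7 differences.

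Among the arginases, Arg1 was near or at 0 except in SPF at day 7, with 3.79, 0 and 4.19 CPM in pGF and 0, 1.63 and 276 CPM in SPF. The pGF day 7 value rests on 3 UMIs, which puts it 65.8-fold below SPF with an interval from 22.5 to 319. Arg2 had 6.64, 11.1 and 25.1 CPM in pGF and 5.01, 6.53 and 278 CPM in SPF, and was 11.1-fold lower in pGF at day 7 (interval 6.98 to 18.7). A UMI of Arg2 was found in 55.3% of SPF day 7 cells but of Arg1 in 15.0%. Thinned to 1000 UMIs the shares were 19.7% and 8.68%, and in T or NK cells of the same library 0.432% and 0.0664%.

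Odc1, downstream of both arginases, differed least between the arms at day 7 over the whole class. It had 309, 222 and 161 CPM in pGF and 226, 223 and 125 CPM in SPF. The day 7 log2 ratio of pGF to SPF was 0.34, and -0.21 when the libraries were scaled by the trimmed mean of M values (TMM), so its direction depends on the scaling. It also depends on the make-up of the class, since without the cells of cluster 7, described below, the ratio was 1.69. In T or NK cells Odc1 was also higher in pGF, at 1.06, where 1.54% of genes passed 2-fold. That scaling moved the median of all genes in this comparison by -0.35, and the 7 other genes stayed lower under it.

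Acod1 had 25.6, 14.8 and 43.3 CPM in pGF and 5.51, 14.7 and 544 CPM in SPF at days 0, 2 and 7. It was 12.6-fold lower in pGF at day 7 (interval 8.84 to 18.5). Sod2 had 138, 172 and 183 CPM in pGF and 138, 150.3 and 1986 CPM in SPF, and was 10.9-fold lower in pGF at day 7 (interval 9.14 to 13). It differed little among the 5 other libraries, and 84.9% of SPF day 7 cells had a UMI of it.

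Neutrophil markers also moved with the SPF day 7 monocytes or macrophages. The 14 markers summed to 5419 CPM in that class, against 419 to 749 CPM in the class in the 5 other libraries, and to 302981 CPM in SPF day 7 neutrophils. The make-up of the class differed between the day 7 libraries as well. The 12 macrophage markers summed to 23319 CPM in pGF and to 5332 CPM in SPF, and the 10 monocyte markers to 3127 CPM in pGF and to 11358 CPM in SPF. The part of these markers in the class differences was not tested. Arg1, Ass1 and Slc7a2 were at or below 5.50 CPM in those neutrophils, while the class held them at 185 CPM or more. Acod1 and Arg2 were higher in those neutrophils than in the class, at 1467 against 544 CPM and 289 against 278 CPM. Nos2, Sod2 and Odc1 were lower in them than in the class, Nos2 at 121 against 840 CPM.

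**Figure D1:**
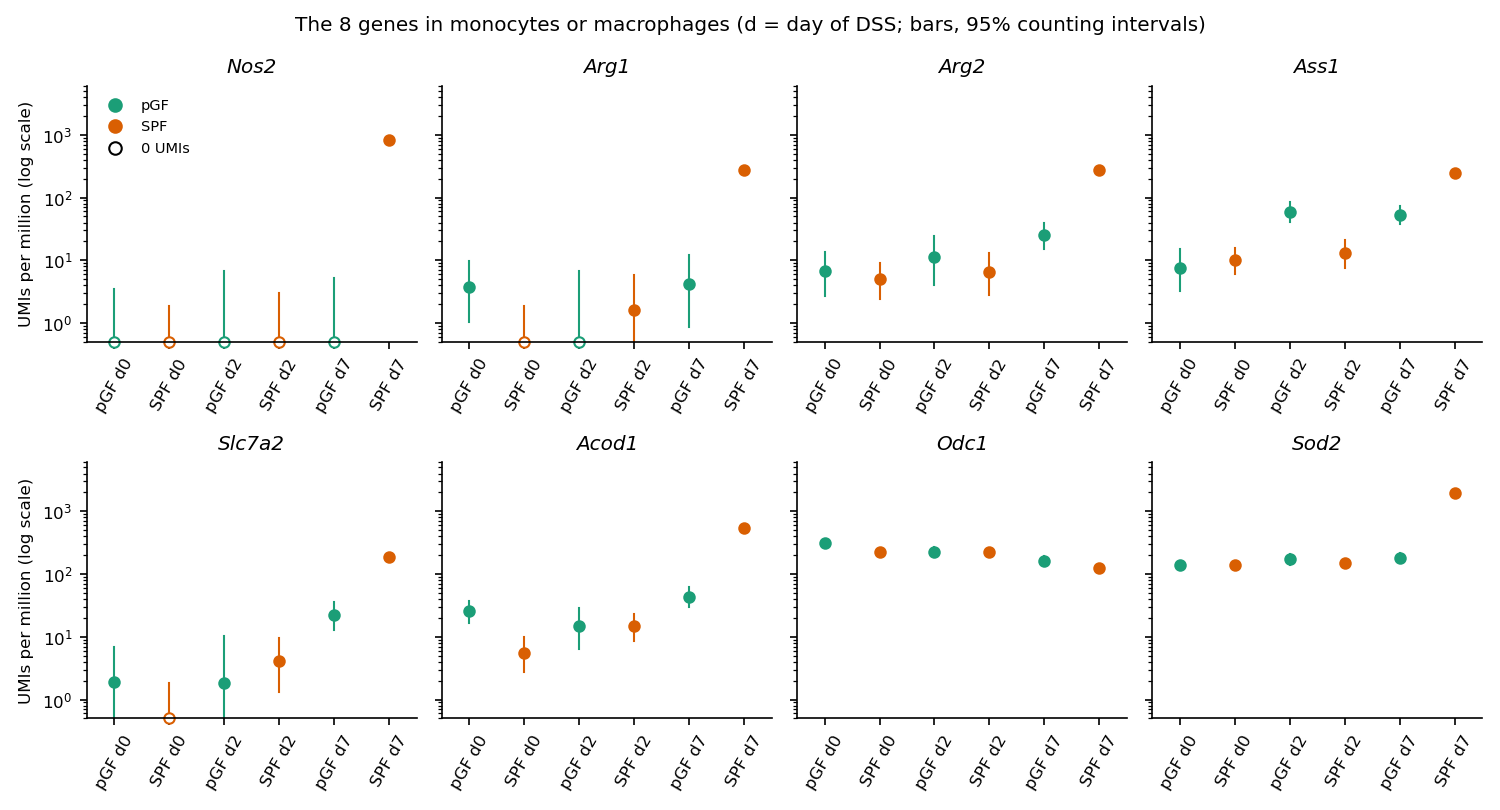
CPM (log axis) of the 8 genes in monocytes or macrophages of the 6 libraries, with pGF in green and SPF in orange at days 0, 2 and 7. Points are class sums, bars are exact Poisson intervals and open circles at the foot mark 0 UMIs. In 7 panels the SPF day 7 point stands above all others, and in the Odc1 panel it is the lowest, at 125 CPM.

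The start region of Acod1 is shown because the gene stood at 43.3 CPM or less in monocytes or macrophages outside SPF day 7, but at 1467 CPM or more in every library with enough neutrophils. The 150 bases before its RefSeq start lie at chr14:103046862-103047011 on the plus strand of GRCm38.p6. Capitals mark GGAAATTCC, 85 bases before the start, and TATAAA, 28 bases before it. These distances hold for the RefSeq start alone. The GENCODE M21 annotation starts Acod1 at 103046977, inside this stretch, with GGAAATTCC before that start and TATAAA after it.
Acod1: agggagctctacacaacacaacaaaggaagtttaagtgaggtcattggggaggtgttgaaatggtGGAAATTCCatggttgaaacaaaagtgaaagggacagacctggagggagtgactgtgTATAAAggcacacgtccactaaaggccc
Both were searched on both strands in the RefSeq windows from 250 bases before to 50 after the start. GGAAATTCC, a sequence of the kappaB type, was chosen after the Acod1 sequence had been read, and 0.317% of 32851 windows hold it. TATAAA was in 13.6%, and the looser kappaB consensus with its central bases free in 50.8%. Of the 8 genes, Ass1, Acod1, Odc1 and Sod2 had a window. Each of these windows held a match to the looser kappaB consensus, so that consensus did not set Acod1 apart. Acod1 was the member of these with GGAAATTCC or TATAAA. A match is a description of the letters and was not tied to any measurement here.

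Within SPF, the same 7 genes were higher at day 7 than at either earlier day. Against day 2, 3.82% of 9795 genes tested were higher, with 17.2% past 2-fold in either direction, and against day 0, 5.02% of 10088 were higher, with 14.4% in either direction. These comparisons share the SPF day 7 library with the comparison of arms. Nos2 was at least 558-fold higher at day 7 than at day 0, Arg1 at least 183-fold and Slc7a2 at least 123-fold, each against 0 UMIs. Acod1 was 98.7-fold higher (interval 55.1 to 198), Arg2 55.5-fold (30.1 to 116), Ass1 24.3-fold (15.7 to 39.9) and Sod2 14.4-fold (12.8 to 16.3). These folds also rest on the cells of cluster 7, a cluster almost wholly of SPF day 7 cells. Without it, 5 genes were higher and Odc1 was lower at day 7 than at either day, with 9.48% of genes past 2-fold against day 2 and 9.11% against day 0. Against day 0, Arg1 then stood at 4.57 on the log2 scale, Arg2 at 2.01, Ass1 at 1.78, Acod1 at 1.61 and Nos2 at 1.14. Sod2 stood at 0.88, Odc1 at -2.16, and Slc7a2 had too few UMIs to be counted. Between SPF days 2 and 0 none of the 8 passed 2-fold, where 3.88% of all genes did.

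Before day 7 the arms differed in 1 gene at each day. At day 0 Acod1 was higher in pGF (log2 ratio 1.20, 27 against 11 UMIs), where 1.36% of genes passed 2-fold. One pGF cell held 37.0% of those UMIs and 1 SPF cell 45.5%. At day 2 Ass1 was higher in pGF (log2 ratio 1.59, 32 against 16 UMIs), where 6.04% of genes passed. Within pGF, Ass1 was higher at day 2 than at day 0 (1.98, with 4.4% of genes past 2-fold). Acod1 was higher at day 7 than at day 2 (1.10, with 4.53%). Arg2 and Ass1 were higher at day 7 than at day 0 (1.08 and 1.84, with 5.06%). These ratios rest on 7 to 38 UMIs a library, and each of these counts fell to 0 under at least 1 other setting.

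The SPF day 7 levels of most of these genes lay in 1 cluster. Clusters were built without the 8 genes and without the genes of the pathway lists. Cluster 7 held 1114 cells, 1104 from SPF day 7, 8 from pGF day 7 and 2 from SPF day 2, and Saa3, Cxcl2 and Slpi led its genes. Its mean score was 4.21 for monocyte markers and 1.88 for macrophage markers (log2 against the median cluster). It held 7665 of the 9428 Nos2 UMIs of all kept SPF day 7 cells, which is 81.3%. It also held 91.0% of the Slc7a2, 78.8% of the Arg1, 74.8% of the Sod2 and 70.8% of the Ass1 UMIs of that library. For Acod1 and Arg2 it held 21.1% and 39.7%, since neutrophils held 76.9% and 56.9%.

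Cluster 21, led by Lyz2 and Chil3 with Fn1 among its leading genes, scored 4.32 for monocyte and 3.07 for macrophage markers. In SPF at day 7 it had the Arg1 level of cluster 7 without its Nos2. Arg1 was at 342 CPM in cluster 21 and 287 CPM in cluster 7, and Nos2 at 15.7 and 1034 CPM. Acod1 was at 32.4 CPM in cluster 21 against 663 CPM in cluster 7, and Sod2 at 303 against 2390 CPM. Cluster 13, led by Apoe with C1qa, C1qb and C1qc, scored 0.313 for monocyte and 5.35 for macrophage markers. It had no Nos2 UMI in SPF at day 7, with Arg1 at 5.91 and Sod2 at 130.0 CPM.

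**Figure D2:**
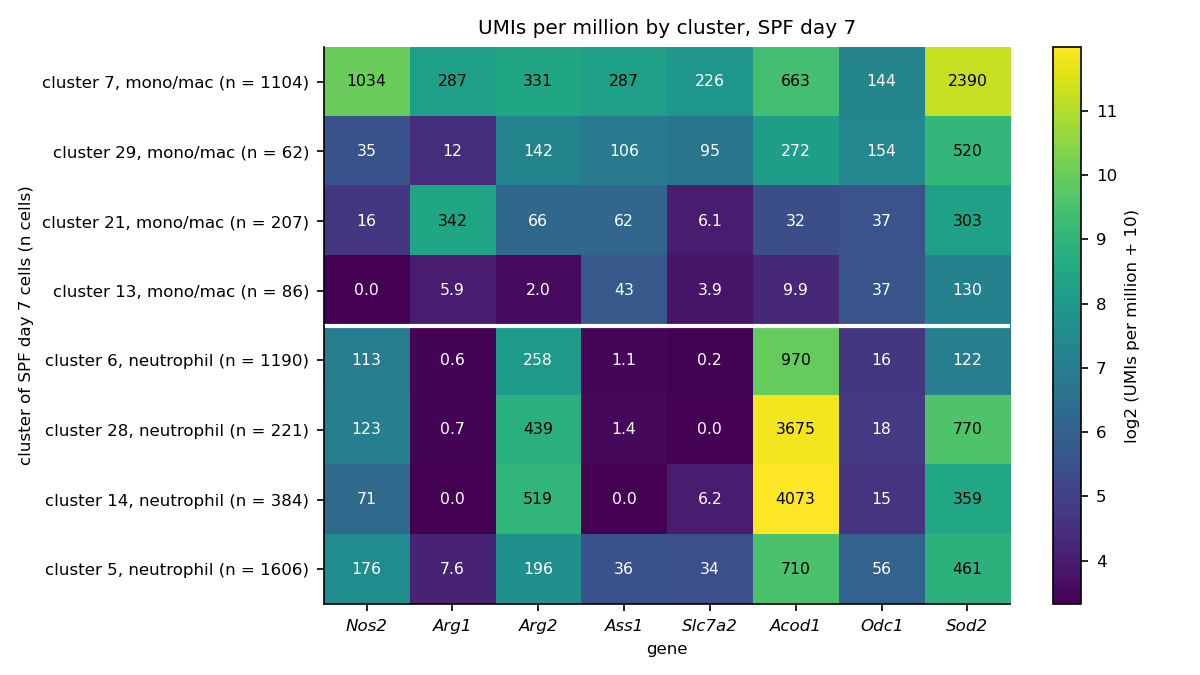
CPM of the 8 genes in the larger clusters of SPF day 7 cells, printed in each cell and coloured by log2 (CPM + 10), with monocyte or macrophage clusters above the white line and neutrophil clusters below it. Nos2 is highest in cluster 7 (1034 CPM), Arg1 in clusters 21 and 7 (342 and 287 CPM), and Acod1 in neutrophil clusters 14 and 28 (4073 and 3675 CPM).

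Clusters 13 and 21 had enough cells in both arms at day 7 for a comparison within the cluster, 73 against 86 cells and 54 against 207 cells for pGF against SPF. Within cluster 21, Arg1 was lower in pGF, at 12.6 against 342 CPM. That is 3 against 391 UMIs, 27.2-fold with an interval from 9.22 to 132. Nos2 had 0 UMIs in pGF and 18 in SPF there, too few to pass the limit of 20. Acod1 and Odc1 were higher in pGF within cluster 21, with log2 ratios of 1.08 and 2.18, so that 3 of 6 passing genes differed by 2-fold against 8.27% of all genes tested. Sod2 differed by -0.48, Arg2 by -0.43 and Ass1 by 0.38. Within cluster 13 only Odc1 passed 2-fold, higher in pGF at 1.07, and 8.46% of genes passed.

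Over the whole class without cluster 7, 156 pGF cells stood against 356 SPF cells at day 7, and 3 genes in place of 7 passed 2-fold, where 4.8% of genes did. Arg1 kept its log2 ratio, at -4.05 against -4.33 with cluster 7, and Nos2 stood at -1.14. Of the 2524 Arg1 UMIs of the SPF day 7 class, 2129 lay in cluster 7 and 391 in cluster 21. The Arg1 ratio without cluster 7 thus rests almost wholly on cluster 21, which held 207 of the 356 SPF and 54 of the 156 pGF cells. Odc1 was higher in pGF, at 1.69. Acod1 stood at -0.08, Ass1 at -0.48, Sod2 at -0.91, Slc7a2 at -0.98 and Arg2 just inside the limit at -1.0. Of the 7686 Nos2 UMIs of the SPF day 7 class, 7665 lay in cluster 7. The whole-class differences in Nos2, Acod1, Ass1, Arg2, Slc7a2 and Sod2 thus moved with the presence of cluster 7 in SPF at day 7. When cells with under 500 detected genes were left out and the rest clustered again, 1046 of the 1114 cells fell in a cluster that the marker score named red blood cells, and so left the class. The log2 ratios of pGF to SPF were then -1.25 for Nos2 and -0.87 for Acod1, and Arg1 stood at -3.51. Red blood cell markers summed to 90.1 CPM in SPF day 7 monocytes or macrophages and 72.7 CPM in T or NK cells of that library. No correction for differences between libraries was made before clustering, so a cell state and the SPF day 7 library cannot be told apart in cluster 7.

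**Figure D3:**
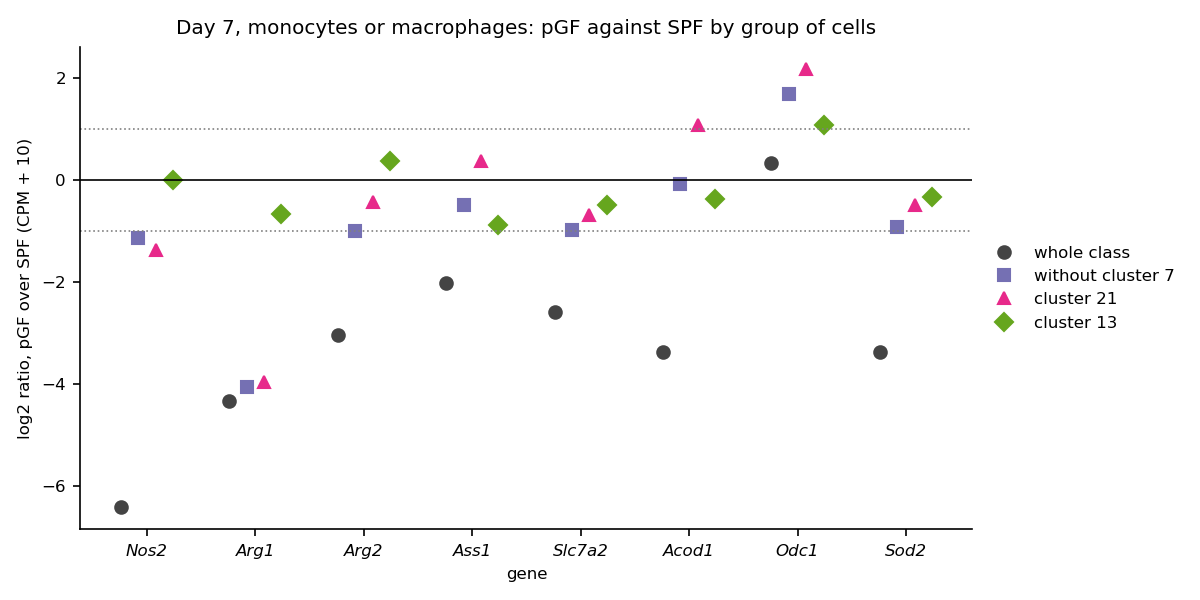
Log2 ratio of pGF over SPF at day 7 for the 8 genes in monocytes or macrophages, for the whole class, for the class without cluster 7, and within clusters 21 and 13, with dotted lines at 2-fold. Arg1 stays near -4 in 3 of the 4 groups of cells, at -4.33, -4.05 and -3.96. These 3 groups all contain cluster 21, and cluster 13 had 0 Arg1 UMIs in pGF and 3 in SPF. Acod1 lies at -3.38 in the whole class and at -0.08 without cluster 7.

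Within cluster 7 of SPF day 7, Slc7a2, Acod1, Sod2 and Ass1 were found more often in cells with a Nos2 UMI than in cells without. After thinning, 320 cells had a Nos2 UMI and 753 did not. Slc7a2 was found in 26.6% of the cells with Nos2 and 7.57% of those without, with intervals of 21.8 to 31.8% and 5.78 to 9.70%. Acod1 was found in 54.1% and 31.2%, and Sod2 in 94.4% and 76.0%. Ass1 was found in 25% and 17.3%, with intervals of 20.4 to 30.1% and 14.6 to 20.2% that lay just apart. Arg1 was found in 12.5% of the cells with Nos2 and 7.97% of those without, with overlapping intervals of 9.08 to 16.6% and 6.14 to 10.1%. Some cells of this cluster thus had UMIs of both Nos2 and Arg1. Arg2 (25.9% and 24.3%) and Odc1 (8.12% and 10.6%) had overlapping intervals as well. Cells of 1 library are not replicates, and these shares describe that library alone.

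**Figure D4:**
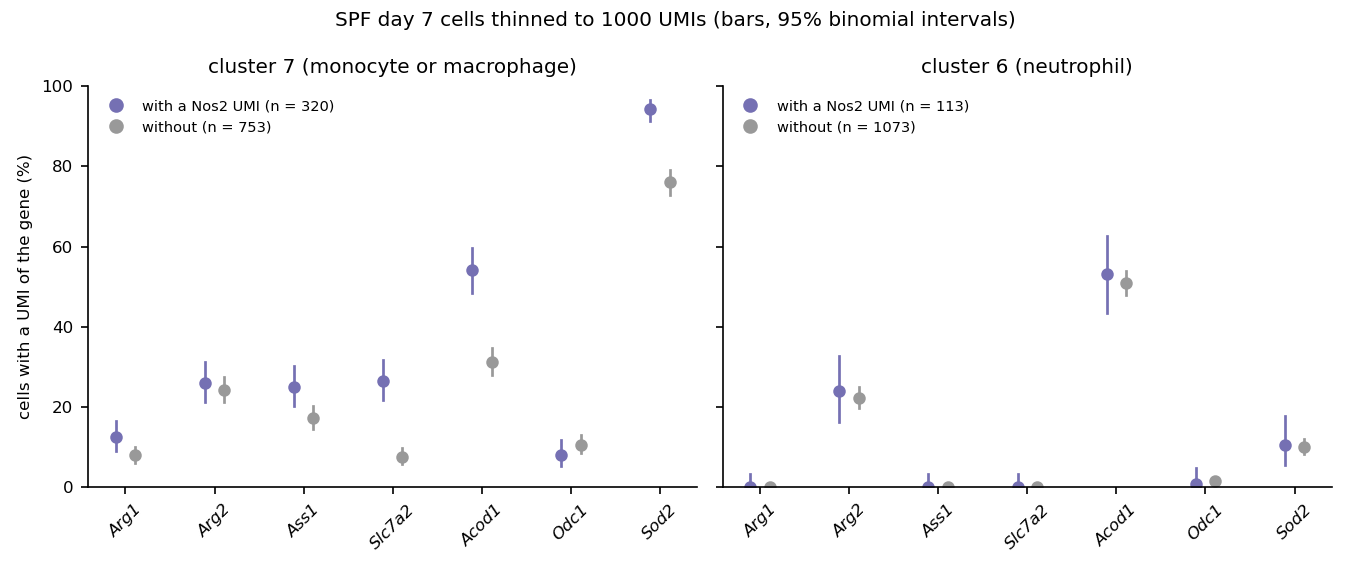
Share of SPF day 7 cells with a UMI of each of the 7 other genes, for cells with a Nos2 UMI (purple) and without (grey), after thinning to 1000 UMIs, in cluster 7 (left) and neutrophil cluster 6 (right), with exact binomial intervals. In cluster 7 the Slc7a2, Acod1, Sod2 and Ass1 intervals of the groups do not overlap, and in cluster 6 they overlap for all 7 genes.

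In neutrophils the pattern of levels was different. Acod1 was present in all 4 libraries with enough cells, at 2628 and 2808 CPM in pGF and 3405 and 1467 CPM in SPF at days 2 and 7. Arg2 was at 649 and 616 CPM in pGF and 339 and 289 CPM in SPF. Sod2 was at 358 and 509 CPM in pGF and 297 and 260.3 CPM in SPF. Arg1 had 0 UMIs in 3 of the libraries and 1.39 CPM in SPF at day 7. Acod1 was found in 68.6% of pGF and 58.0% of SPF day 7 neutrophils after thinning (70.4% and 65.5% unthinned), and in 0.141% of pGF and 0.797% of SPF T or NK cells. Neutrophils had median depths of 1208 and 1481 UMIs in these pGF and SPF libraries, and T or NK cells 2409 and 3102.

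Nos2 had 0, 0 and 0 UMIs in neutrophils of pGF day 2, pGF day 7 and SPF day 2, and 1474 UMIs in SPF day 7, or 121 CPM. The floor of 3 counts in the 71 pGF day 7 neutrophils was 29.4 CPM, so Nos2 was at least 4.12-fold lower there. In SPF at day 7, 20.4% of neutrophils had a Nos2 UMI (10.1% thinned), against 0.914% (0.199% thinned) of T or NK cells. The 292 cells named red blood cells in that library stood above neutrophils, at 252 CPM of Nos2 from 115 UMIs. What part of the neutrophil Nos2 UMIs came from RNA of other cells was not tested. Cluster 6, a neutrophil cluster of which 1190 of 1191 cells came from SPF day 7, had 948 Nos2 UMIs (113 CPM) and 2 Slc7a2 UMIs. That is 0.211 Slc7a2 UMIs for every 100 of Nos2, against 21.9 in cluster 7 and 23.3 in T or NK cells of the same library. The T or NK value rests on 7 Slc7a2 and 30 Nos2 UMIs. Cluster 5, whose neutrophils had a median of 757 UMIs, had 19.3 for every 100, close to cluster 7. Neutrophil clusters 28, 14 and 46 had 0, 8.77 and 11.8, cells named red blood cells 23.5 and the unnamed cells 48.1. Within cluster 6, Acod1 was found in 53.1% of cells with Nos2 and 50.9% of cells without.

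Of the 7 genes that passed the UMI limit in neutrophils, Nos2 was lower and Arg2 higher (log2 ratio 1.07) in pGF than in SPF at day 7. Past 2-fold were 23.1% of 8759 genes, a share near that of the members, and 1 UMI in the pGF neutrophils is 9.78 CPM. Acod1 stood at 0.93 and Sod2 at 0.94. Most of the pGF neutrophils (66 of 71) lay in cluster 14, and most of the SPF ones in clusters 5 and 6. Within cluster 14, 66 pGF against 384 SPF cells, Acod1 was at 2886 against 4073 CPM and Arg2 at 627 against 519 CPM, both within 2-fold. Nos2 was lower in pGF there, 0 against 57 UMIs and at least 2.26-fold, with 21.6% of genes past 2-fold. Scaling by TMM took the class ratio of Acod1 to 0.06 and that of Arg2 to 0.22. The summed neutrophil markers, S100a8 and S100a9 among them, stood at 107356 CPM in the pGF cells and at 302981 CPM in the SPF cells.

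Against SPF day 2, SPF day 7 neutrophils had higher Nos2 (at least 2.85-fold) and lower Acod1 (log2 ratio -1.21), where 31.8% of genes passed 2-fold. Within cluster 14 the Acod1 ratio of these days was 0.04, at 4073 against 3966 CPM, and Nos2 was the 1 of 4 passing members past 2-fold, with 33.2% of genes past it. At day 2, none of the 3 members that passed the UMI limit differed by 2-fold between pGF and SPF neutrophils, where 17.3% of 1233 genes did. Odc1 fell just under the limit, with 16 against 3 UMIs (179 against 42.4 CPM). Odc1 was lower in pGF at day 7 than at day 2 (-1.68, 5 against 16 UMIs), with 10.7% of genes past 2-fold.

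**Figure D5:**
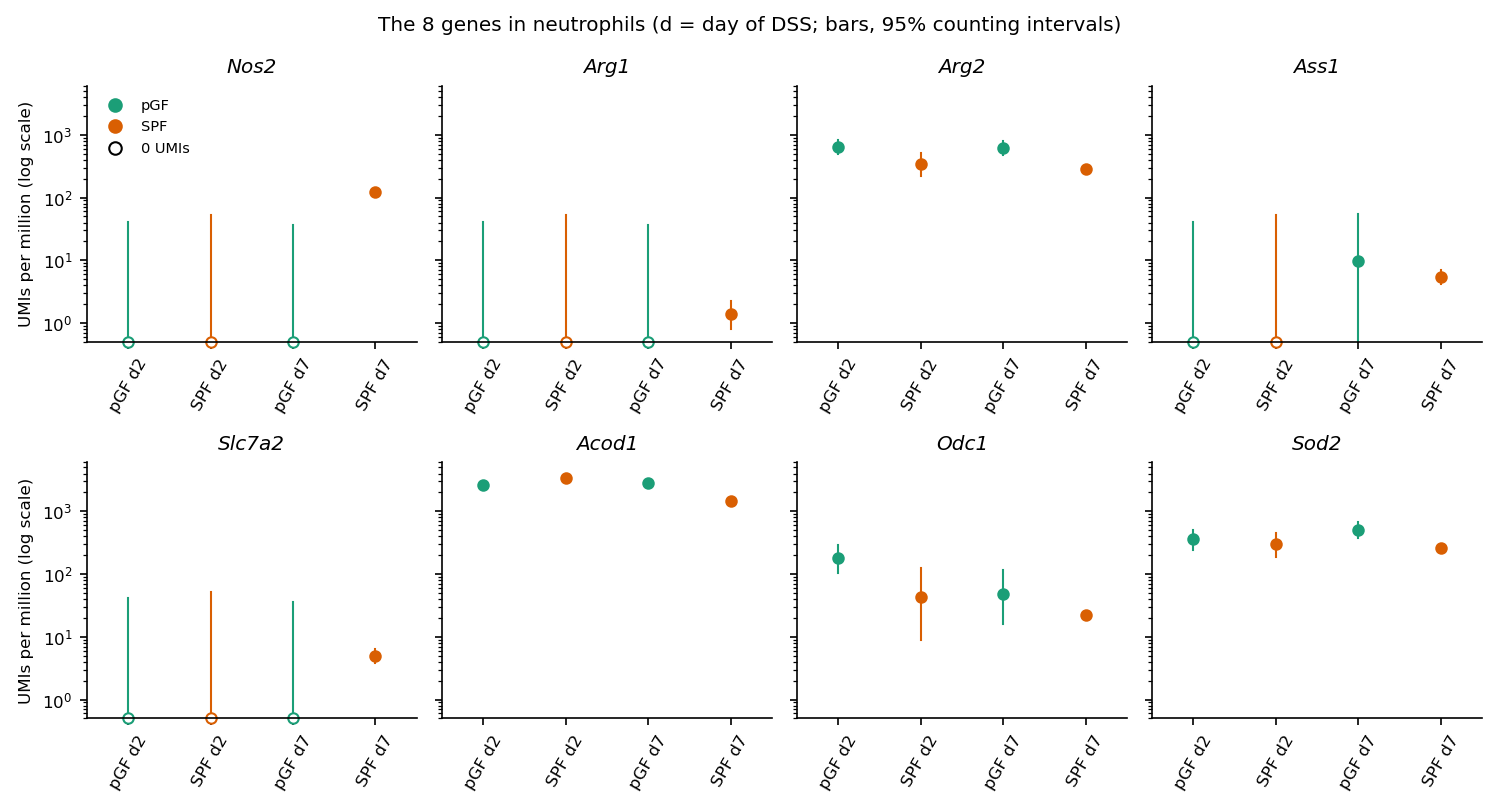
CPM (log axis) of the 8 genes in neutrophils of the libraries with at least 20 neutrophils, with pGF in green and SPF in orange at days 2 and 7. Bars are exact Poisson intervals and open circles mark 0 UMIs. Acod1 lies between 1467 and 3405 CPM in all 4 libraries, while Nos2 is above 0 in SPF day 7 alone, at 121 CPM.

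In epithelial cells the genes other than Arg2 differed little between the libraries outside SPF day 7. Arg2 had 17.3, 7.31 and 0.95 CPM in pGF at days 0, 2 and 7 and 12.4 and 8.76 CPM in SPF at days 0 and 2. Nos2, Arg1, Slc7a2 and Acod1 were at or below 2.85 CPM in the 5 libraries other than SPF day 7. Single clusters could stand higher. In SPF day 2, Nos2 was at 18.1 CPM in cluster 27 (4 UMIs) and 8.47 CPM in cluster 38 (8 UMIs), with 0 UMIs in clusters 22, 26 and 30. Odc1 had 159.8, 174 and 161 CPM in pGF at days 0, 2 and 7 and 197 and 172 CPM in SPF at days 0 and 2. Sod2 had 149, 159 and 128 CPM in pGF and 169 and 112 CPM in SPF. At day 2, with 1079 pGF against 764 SPF cells, none of the 7 genes that passed the limit differed by 2-fold, where 0.483% of 13242 genes did. Sod2 was furthest, at 0.46. At day 0 none of the 4 that passed differed by 2-fold either, where 0.78% of genes did. The same held for the passing members in SPF day 2 against day 0, pGF day 2 against day 0 and pGF day 7 against day 2, with 1.29%, 1.04% and 1.48% of genes past 2-fold. Arg2 was lower in pGF at day 7 than at day 0 (-1.32, 1 against 56 UMIs), with 3% of genes past 2-fold. Cluster 22 held 55 of those 56 UMIs. It made up 36 of the 113 pGF epithelial cells at day 0 and 8 of the 82 at day 7, and its part in this difference was not tested. The 37 SPF day 7 cells named epithelial had a median of 774 UMIs, 1 UMI there is 26.0 CPM, and neutrophil markers summed to 17057 CPM in them. Their comparisons are not described, since 43.6% of genes passed 2-fold against pGF day 7, 40% against SPF day 2 and 46.4% against SPF day 0.

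Other classes also held some of the genes. Arg1 in group 2 innate lymphoid cells (ILC2), a lymphocyte known to express it in mice, was at 356, 492 and 343 CPM in pGF and 307, 727 and 135 CPM in SPF at days 0, 2 and 7. These values come from 27, 204 and 175 pGF cells and 24, 68 and 37 SPF cells. ILC2 were the highest of the ranked classes for Arg1 in 5 libraries, and monocytes or macrophages in SPF day 7. In that library Ass1 was highest in dendritic cells, at 450.3 CPM, above the 244 CPM of monocytes or macrophages. Odc1 was highest of the ranked classes in plasma cells or ILC2 in the 5 other libraries, with plasma cells between 427 and 575 CPM there. In SPF day 7, ILC2 were not among the classes ranked, of which dendritic cells came first for Odc1 at 209 CPM. The 37 ILC2 of that library held 84 Odc1 UMIs, beside the 13 Arg1 UMIs behind their 135 CPM. Their Odc1 level was thus above that of dendritic cells.

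Across 35 pairs of class and library, the genes most like each member by Pearson correlation of log2 (CPM + 10) were the following. Nos2 was most like Saa3, an acute-phase protein (r = 0.93), and Csf3, which encodes the growth factor G-CSF (0.91). Slc7a2 was most like Dmkn (0.94) and Inhba (0.92), which encodes an activin subunit, and Inhba also stood beside Nos2 (0.90). Arg2 was most like Acod1 (0.96), and Acod1 most like Trem1 (0.98), a receptor of neutrophils and monocytes. Arg1 was most like Lif (0.87) and Il5 (0.84), Ass1 most like Htr7 (0.85), Odc1 most like Spcs3 (0.84), a signal peptidase subunit, and Sod2 most like Il1rn (0.91), the interleukin 1 receptor antagonist. These are descriptions over 7023 genes. Outside SPF day 7, Nos2 was at or below 2.13 CPM and Slc7a2 at or below 22.3 CPM in every ranked class. Their correlations thus rest mostly on a few pairs of the SPF day 7 library. The pairs share libraries and depth, and Trem1 and Il5 are among the markers that named neutrophils and ILC2.

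Around the members, genes of the wider pathways were counted in monocytes or macrophages of pGF against SPF at day 7. The counts are over the whole class, in which cluster 7 made up 1104 of 1460 SPF and 8 of 164 pGF cells. List values without cluster 7 are not given here, so these are not differences between like cells. Of all genes, 8.18% were higher there and 3.87% lower, so that 1 or 2 genes of a short list are near the background. None of the 5 passing genes of arginine uptake and the urea and citrulline steps was lower, and Slc7a1, another arginine transporter, was higher in pGF (32.1 against 8.30 CPM, log2 ratio 1.20). Of 7 passing genes for the other nitric oxide synthases and their cofactor, Gch1, the first enzyme of tetrahydrobiopterin synthesis, was lower (71.2 against 202 CPM, -1.38). Qdpr, which recycles that cofactor, was higher (1.12). Of 13 passing polyamine genes, Smox, spermine oxidase, was lower (123 against 519 CPM, -1.99). Of 6 passing genes of ornithine and proline, 2 were higher, Gatm (1.57) and Gamt (1.02), the enzymes of creatine synthesis. Of 18 citrate cycle genes, 2 were higher, Idh2 (1.24) and Idh1 (1.02). The medians of these lists lay between -0.09 and 0.56, beside 0.24 over all genes.

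The Nrf2 targets had the lowest median, -1.06, with 5 of 10 passing genes lower in pGF and none higher. Slc7a11, the cystine transporter, was at 148 against 975 CPM (-2.64), and Fth1, the ferritin heavy chain, at 8537 against 42146 CPM (-2.30). In the superoxide and peroxide list 3 of 17 were lower, among them the peroxiredoxin Prdx5 (578 against 2707 CPM) and the thioredoxin Txn1 (317 against 1019.9 CPM). In it 3 were higher, among them catalase, Cat (68.4 against 11.8 CPM, 1.85). Of 20 passing cytokines, receptors and transcription factors known to induce these genes, 6 were lower and 1 higher. Tnf was at 271 against 924 CPM (-1.73), Il1b at 5454 against 14091 CPM (-1.37), and Irf8 higher at 278 against 87.7 CPM (1.56).

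Within SPF, the same lists at day 7 against day 0 gave 7 of 10 Nrf2 targets higher (median 1.25) and 9 of 20 inducing genes higher and 1 lower (median 0.94). The median over all genes was -0.22, with 5.02% higher and 9.37% lower. Cluster 7 was part of the day 7 class here as well. Gch1 stood at 202 against 42.6 CPM (2.01), Smox at 519 against 105 CPM (2.20) and Slc7a11 at 975 against 39.6 CPM (4.31). Idh2 was lower, at 12.6 against 79.2 CPM (-1.98), and Gatm lower at 35.6 against 158 CPM (-1.88). In pGF against SPF neutrophils at day 7, 7 of 20 inducing genes were higher and 1 lower (median 0.84, against 0.06 over all genes), where 15.3% of all genes were higher and 7.82% lower. TMM scaling moved the median of all genes in that comparison by -0.43, and most pGF cells lay in cluster 14, most SPF cells in clusters 5 and 6. Irf1 was at 812 against 195 CPM (2.00). In epithelial cells at day 2 no gene of the 8 lists passed 2-fold.

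On mm10, GENCODE M21 places Nos2 at chr11:78920787-78960254 on the plus strand, Arg1 at chr10:24915221-24927484 on the minus strand and Acod1 at chr14:103046977-103056573 on the plus strand. Ass1 lies at chr2:31470207-31520672, Odc1 at chr12:17544794-17551505, Sod2 at chr17:13006846-13040063, Slc7a2 at chr8:40862396-40922308 and Arg2 at chr12:79130777-79156301, all on the plus strand. Arg2 overlaps Vti1b and the antisense gene Gm48780, and Slc7a2 the noncoding Gm26584, all 3 on the other strand, and Odc1 contains the small nucleolar RNA gene Gm22748. The sources used here do not state the strand setting of the counting.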

How the data were processed

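Single-cell 5' gene expression libraries were made from CD45-sorted mouse colon cells, 1 library for each of 6 groups. The deposited values are UMI counts per gene and barcode, which the authors made with Cell Ranger 6.1.2 per the file headers. The genome build mm10, R 4.1.3 and Seurat 4.1.1 come from the submitters' processing notes. The matching receptor libraries are not analysed here.

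From those counts, barcodes were kept if 200 or more genes had a UMI and no more than 10% of UMIs were mitochondrial. Doublets were scored against 2 simulated doublets per cell and removed at 0.8% per 1000 barcodes. Cells of all libraries were clustered together without batch correction (2000 variable genes, 30 principal components, 20 neighbours, Leiden resolution 1, 52 clusters). The 8 genes, the pathway genes, antigen receptor, mitochondrial and sex-linked genes were left out of the variable genes. Clusters were named from marker lists by the log2 of (CPM + 20) against the median cluster, with a score of at least 1 and at least 3 markers detected. The naming rule was revised after the clusters had been seen, leaving immunoglobulin variable genes out of each cluster's leading genes.

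UMIs were summed per class and library. Values needed 20 cells, ratios 30 cells in both libraries and 20 UMIs in the pair. Shares of cells came from cells thinned to 1000 UMIs, with exact binomial intervals, and shallower cells were left out of them. Ratios were checked on simulated data, in which unchanged genes passed 2-fold more often in pGF against SPF neutrophils at day 7 than in the monocyte or macrophage and epithelial comparisons simulated. The members and lists were chosen with earlier results of these data known. All members are named, with at most the 2 genes furthest in each direction from a pathway list and the 3 most alike for each member. TMM scaling, other totals, pseudocounts, filters and clusterings were tried as alternatives. Tools were Python 3.11.15, numpy 2.4.6, scipy 1.17.1, pandas 2.3.3, scikit-learn 1.9.0, igraph 0.11.9, leidenalg 0.10.2 and matplotlib 3.10.9.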

Additional observations from a re-analysis of the deposited data

Results flagged for a closer look

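In monocytes or macrophages, 2 of the 8 genes passed 2-fold in opposite directions on different days. Ass1 was higher in pGF than in SPF at day 2 (log2 ratio 1.59) and lower at day 7 (-2.01). Acod1 was higher in pGF at day 0 (1.20) and lower at day 7 (-3.38). With 1 library per group the difference between days was not tested. The earlier values rest on 32 against 16 UMIs for Ass1 and 27 against 11 UMIs for Acod1. At day 7, without cluster 7, the ratios were -0.48 for Ass1 and -0.08 for Acod1.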

How the results depend on the processing

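No paired analysis was possible because no result comes from a test, each comparison being of 1 library with 1 other. An arm effect averaged over the 3 days was not fitted. Of 37 ratios past 2-fold, 34 kept their direction and passed under TMM scaling, 28 with a pseudocount of 50 CPM and 37 with 1 CPM. With at least 500 detected genes 25 of 31 did. Without cluster 7, an alternative chosen after seeing the data, 16 of 25 did. Many of the 37 set the same genes of SPF day 7 monocytes or macrophages against different libraries, so they are not separate results. The 37 also include ratios of SPF day 7 epithelial cells, whose comparisons are not described above.

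The count of 7 for pGF against SPF monocytes or macrophages at day 7 was 7 under all settings but the loss of cluster 7, which gave 3. With at least 500 detected genes the 7 held 6 of the same genes, with Odc1 (higher in pGF) in place of Acod1, because most of cluster 7 left the class. The counts in monocytes or macrophages for SPF day 7 against earlier days were between 6 and 8, but the genes were not the same throughout. Without cluster 7 the 6 were Nos2, Arg1, Arg2, Ass1 and Acod1, higher, and Odc1, lower. The small counts moved more. In monocytes or macrophages, pGF against SPF at day 0 fell to 0 with at least 500 genes, a pseudocount of 50 CPM or the mean of each cell's own CPM, and at day 2 to 0 with resolution 2, 50 CPM or own CPM. SPF day 2 against day 0 gave 1 with a pseudocount of 1 CPM. Within pGF, day 2 against day 0 gave 0 with 500 genes or 50 CPM. Day 7 against day 2 gave 0 with 500 genes, 50 CPM or without cluster 7, and 2 with 1 CPM, no filter or own CPM. Day 7 against day 0 gave 0 with a 20% mitochondrial limit, 500 genes or 50 CPM, and 1 with no doublets removed, resolution 2 or without cluster 7.

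In neutrophils, pGF against SPF gave 1 at day 2 with no doublets removed or no filter. At day 7 it gave 4 with 500 genes, 1 CPM or without low-UMI clusters, and 1 with TMM, the reduced total or 50 CPM. SPF day 7 against day 2 gave 1 with TMM or the reduced total and 4 with 1 CPM or own CPM. Within pGF, day 7 against day 2 gave 0 with a 20% limit, 500 genes or no doublets removed. In epithelial cells, pGF against SPF at day 7 gave 3 with no doublets removed and 4 with no filter. SPF day 7 against day 2 gave 4 with no doublets removed or 1 CPM and 1 with 50 CPM, and against day 0 gave 4, 2 and 3 with no doublets removed, 1 CPM and no filter. With 1 CPM, pGF day 2 against day 0 and day 7 against day 2 gave 2 each. Day 7 against day 0 gave 0 with 50 CPM and 2 with own CPM. The Nos2 ratio in epithelial cells of SPF day 7 against day 2 was -0.44 with a 20% mitochondrial limit, the opposite direction, and rests on 1 UMI at day 7. Apart from the loss of cluster 7 and of cells, the cause of these changes was not tested. Neutrophil values in pGF and SPF day 2 are limited by 49 to 71 cells.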
